A study of Mus musculus with 10 samples.

Results

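The genes described here are 10 members of the contractile actin and myosin machinery, taken from the 32285 genes of the matrices by symbol: the smooth muscle actin *Acta2*, the actin-binding proteins *Tagln* and *Cnn1*, the myosin light chains *Myl9* and *Myl6*, the tropomyosins *Tpm1* and *Tpm2*, and the non-muscle myosin II heavy chains *Myh9*, *Myh10* and *Myh14*. All 10 were present in each matrix, and the list was chosen with earlier results of these data known. They were read in wild-type mouse embryos of the NMRI strain by single-cell RNA sequencing (scRNAseq), with whole mandibles taken at E11.5 and buds of the lower incisor at both E14.5 and E16.5. The labels list 4, 4 and 2 samples, which were deposited as 1 pooled matrix per stage, and no barcode could be assigned to a sample. Each stage is therefore 1 sample without replicates, no difference below carries a test, and stage, dissection and sequencing cannot be told apart.

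Actin filaments become contractile where bipolar myosin II filaments slide along them. Each myosin II motor holds a pair of heavy chains, a pair of regulatory light chains such as *Myl9* and a pair of essential light chains such as *Myl6*. The non-muscle heavy chains are found in almost all animal cells, where they set cortical tension and cell shape, and *Acta2*, *Tagln* and *Cnn1* are best known from vascular smooth muscle and pericytes. *Acta2* is also transcribed for a time in embryonic skeletal and cardiac muscle. In the tooth germ, myosin II has been studied for the forces that bend and fold the dental epithelium.

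Each captured RNA molecule carries a unique molecular identifier (UMI). Cells passed with 700 or more genes and no more than 20% mitochondrial UMIs, which left 6573, 6091 and 4511 of them at the 3 stages, in order, with medians of 5664, 3471 and 6260 UMIs. The pairs of stages shared 13, 17 and 16 barcode sequences among the barcodes deposited. Clusters were named from marker lists that hold no member: mesenchyme had 5997, 4607 and 2492 cells, endothelium 215, 163 and 121, immune cells 66, 129 and 26, and erythroid cells 139, 145 and 36. An epithelium-like cluster of 988 cells was found at E14.5 and epithelium-like clusters of 1744 cells together at E16.5. At E11.5 no cluster was epithelial, and a cluster of 114 skeletal muscle-like cells stood apart, in which all 10 muscle markers of the list had counts and 5 were found in at least 10% of cells. No cluster was perivascular at any stage. Cells with a UMI of at least 3 of the 10 perivascular markers were set apart instead, 6, 15 and 77 of them, and likewise 13 epithelial-marker and 23 glial-marker cells at E11.5 and 12 glial-marker cells at E16.5. Such a set is a range of marker counts and not a type, and mixed droplets were not separated from it: in the E14.5 and E16.5 perivascular sets all 10 epithelial markers were each found in at least 10% of cells, as were 7 and 10 of the mesenchymal markers, and the pericyte marker *Vtn* was at 0. In sum their epithelial markers stood at 2140 and 1800 CPM, above their perivascular markers at 688 and 980 CPM, so these sets too are named by their marker rule only. Their median depths were 7702 and 12358 UMIs, against 3239 and 5873.5 UMIs in mesenchyme. The 12 glial-marker cells of E16.5 were drawn 6 each from epithelial and mesenchymal clusters and carried the epithelial markers at 2960 CPM in sum against 231 CPM of the glial markers, so they are named here by their marker rule only. Of the 13 epithelial-marker cells, 7 came from the muscle cluster. Brackets after a value give exact 95% intervals, which cover counting error only.

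Levels are CPM, a gene's counts summed over a group of cells and scaled to all UMIs of that group. Because the libraries capture the 3′ end and a UMI counts a molecule once whatever its length, levels of different genes were compared without a correction for length. Summed over all kept cells, *Tpm1* (247, 547 and 675 CPM in order of stage) and *Myl6* (388, 569 and 645 CPM) were the most abundant members at the later stages. *Myh10* followed at 263, 161 and 155 CPM. *Tpm2* stood at 43.1, 99.8 and 109 CPM and *Myh9* at 43.6, 66.4 and 86.8 CPM. *Myl9* (13.7, 33.0 and 53.8 CPM), *Tagln* (3.79, 36.3 and 28.0 CPM) and *Acta2* (6.40, 17.0 and 23.5 CPM) were lower. The scarcest were *Myh14* (0.168, 1.94 and 8.02 CPM) and *Cnn1* (0.126, 0.324 and 0.350 CPM). Among the members, all but *Tagln*, *Cnn1* and *Myh10* thus had non-overlapping intervals of these sums in ascending order over the stages, while *Myh10* was highest at E11.5. The share of all genes with such an order was not computed, so whether this sets the members apart is not known. The lineages in the sums differed between stages, with epithelial cells at 0.452%, 24.7% and 44.7% of all UMIs, and their part was not tested. From E14.5 to E16.5 *Acta2* went from 13.1 to 7.71 CPM in mesenchyme and from 725 to 327 CPM in the perivascular-marker sets. In epithelium it went from 6.26 to 12.1 CPM.

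**Figure D1:**
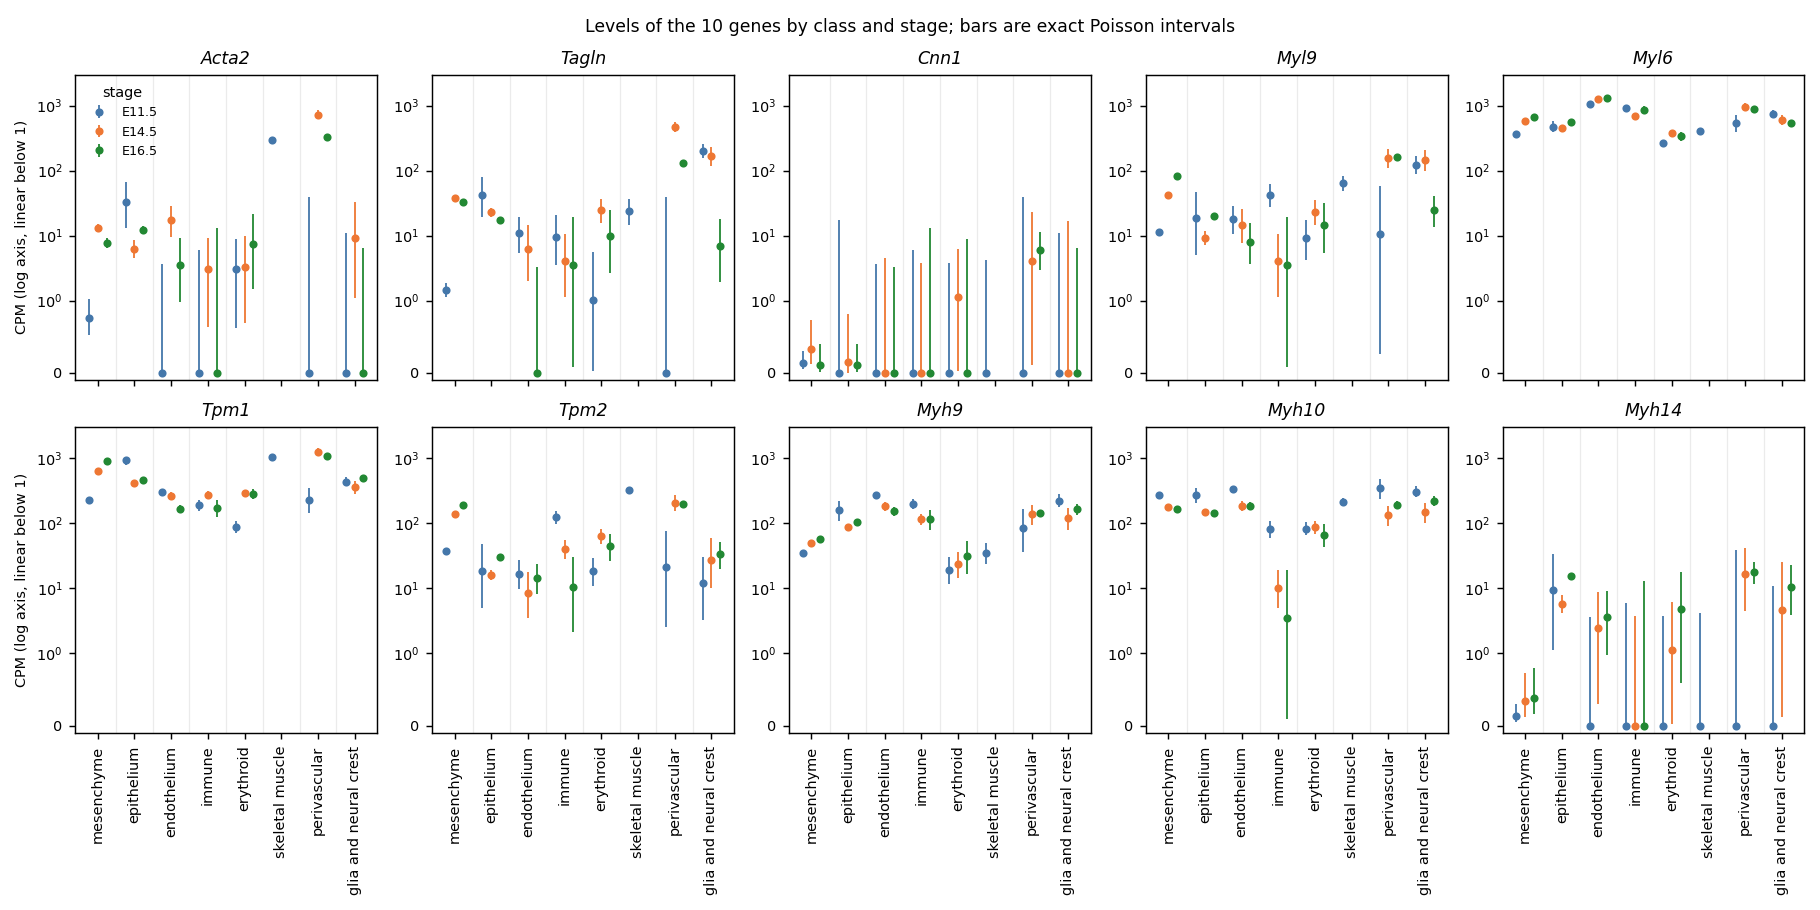
Level of each member (CPM, log axis) by lineage and stage, with exact 95% counting intervals as bars. *Acta2* stands highest in the E11.5 muscle cluster and the E14.5 and E16.5 perivascular-marker sets, while *Myl6* and *Tpm1* are high in most lineages.

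Smooth muscle genes are classically bound by serum response factor at CArG boxes, short runs of A and T between CC and GG. The boxes found in the 250 bases before the RefSeq start sites of the members are shown because they mark which of these genes carry that element close to the start. A window was at hand for 9 of the 10 members. A strict box lay in the windows of 2 members and a box with at most 1 G or C in its core in those of 3, against 1.47% and 8.59% of all 32851 windows of the same length. The units differ, since a member counts with a box in any of its windows, of which *Myl6* has 2, and the background counts single windows. Each line gives the box in capitals with 10 flanking bases on either side, read 5′ to 3′ on the gene's strand from RefSeq on GRCm38.
*Acta2*, chr19:34255438-34255467, minus strand: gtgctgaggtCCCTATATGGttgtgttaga
*Acta2*, chr19:34255388-34255417, minus strand: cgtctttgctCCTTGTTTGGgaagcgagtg
*Myl9*, chr2:156775293-156775322, plus strand: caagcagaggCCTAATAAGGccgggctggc
*Myl9*, chr2:156775355-156775384, plus strand: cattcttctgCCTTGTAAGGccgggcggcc
*Myl6*, chr10:128493040-128493069, minus strand: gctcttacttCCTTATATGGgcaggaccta
The first *Myl9* box and the *Myl6* box, which precedes the second of its start sites, are strict, and the other 3 hold 1 G or C in the core. Both *Acta2* boxes lie inside the gene as annotated by GENCODE (chr19:34241090-34255590), and both *Myl9* boxes lie before the annotated gene (chr2:156775420-156781658). Whether a box lies in an exon was not examined. The *Myl6* box lies inside the gene (chr10:128490860-128494145). No match in a window says only that these letters are absent from it.

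*Acta2*, the actin of smooth muscle stress fibres, was found in few cells, and its highest levels lay in different groups at E11.5 and later. At E11.5 the muscle cluster held 85.9% of all *Acta2* UMIs with 1.87% of all UMIs. Its level there was 294 CPM (259 to 332), with a UMI in 66 of 114 cells, a median of 1 and a highest count of 24 per cell, whereas mesenchyme stood at 0.761 CPM (0.524 to 1.07), with a UMI in 24 of 5997 cells. The ratio of the levels was 386 (268 to 573). The clusters were drawn without the members, although *Acta2* was then among the 10 leading genes of this cluster beside *Tnnt1*, *Ttn* and *Actc1* of the sarcomere. No *Acta2* UMI was found in 215 endothelial, 66 immune or 6 perivascular-marker cells of that stage, which allows up to 2.98, 4.85 and 31.5 CPM. Erythroid cells, which should lack the gene, had 3.04 CPM (0.627 to 8.89) at a median of 5628 UMIs. Their droplets also held mesenchymal markers, at 664, 1660 and 1280 CPM in sum over the stages against 533, 251 and 125 CPM in immune cells, so levels in both are given below where a background matters. The 13 epithelial-marker cells of E11.5 had 32.6 CPM (13.1 to 67.1), from 7 UMIs in 3 cells. Over all E11.5 cells *Acta2* stood at 0.927 CPM (0.668 to 1.25) in the 6351 cells without a muscle marker, 44.5 (34.8 to 56.0) with 1 and 320 (258 to 392) with 2. The level did not go up at every step. It was 184 CPM (129 to 255) in 17 cells with 3 markers, 204 CPM (82.0 to 420) in 2 cells with 4 and 552 CPM (375 to 783) in 5 cells with 5. In 1 cell with at least 6 it was 4150 CPM (2660 to 6170). All 19 cells with at least 5 *Acta2* UMIs carried a UMI of a muscle marker.

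At the later stages the perivascular-marker sets had the highest *Acta2* levels of the groups with more than 1 cell. They are sets by marker rule and deeper than mesenchyme, and the part of depth and of mixed droplets in their levels was not tested. In the 15 such cells of E14.5 *Acta2* stood at 725 CPM (622 to 841), with 4 cells at 0, a median of 4 and highest counts of 46, 28 and 27, against 13.1 CPM (11.4 to 14.9) in mesenchyme, a ratio of 55.5 (45.4 to 67.9). In the 77 cells of E16.5 it stood at 327 CPM (300 to 356), with 45 cells at 0 and highest counts of 108, 73 and 54, against 7.71 CPM (6.49 to 9.11) in mesenchyme, a ratio of 42.4 (35.1 to 51.5). The 3 highest cells held 57.7% and 43.7% of the set's *Acta2* UMIs, so a few cells carried much of each level. At these stages the level was higher in cells with many perivascular markers, though not at every step. At E16.5 it was 7.87 CPM (6.76 to 9.11) with none, 22.0 CPM (17.5 to 27.3) in 213 cells with 2, 18.2 CPM (11.1 to 28.1) in 45 cells with 3, 208 CPM (149 to 283) in 7 cells with 5 and 1560 CPM (1420 to 1700) in 21 cells with at least 6. At E14.5 it was 9.01 CPM (7.78 to 10.4) with none, 166 CPM (113 to 235) in 7 cells with 3, 1760 CPM (1170 to 2550) in 2 cells with 4, 897 CPM (185 to 2620) in 1 cell with 5 and 3240 CPM (2670 to 3890) in 5 cells with at least 6. Requiring at least 6 markers, a choice made after seeing the data, gave ratios to mesenchyme of 248 and 202. A finer clustering of E16.5 drew a perivascular cluster of 25 cells with a ratio of 240, so the ratio of the 77 cells depended on where the set was drawn. At E11.5 the level did not go up with these markers, at 6.39, 6.83 and 2.83 CPM with none, 1 and 2. The 6 perivascular-marker cells of E11.5 had no UMI of *Acta2* or *Tagln*, with *Kcnj8*, *Higd1b* and *Vtn* of that list also at 0.

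**Figure D2:**
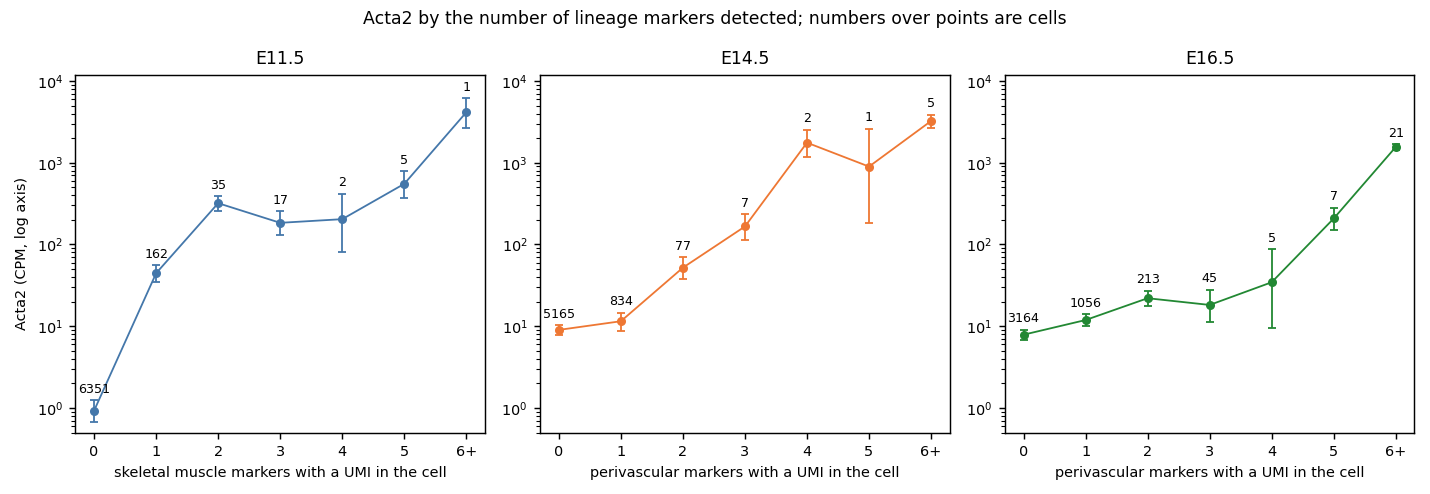
*Acta2* level (CPM, log axis, bars give exact 95% counting intervals) against the number of lineage markers with a UMI in a cell, for skeletal muscle markers at E11.5 and perivascular markers at E14.5 and E16.5. Over the perivascular markers the level is highest at 6 or more, at E14.5 (3240 CPM) and E16.5 (1560 CPM), and at E11.5 it is 0.927 CPM without and 44.5 to 4150 CPM with muscle markers.

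Outside these sets few cells had an *Acta2* UMI. Epithelium stood at 6.26 CPM (4.53 to 8.44) at E14.5, from 43 UMIs in 22 of 988 cells, which was 0.480 (0.338 to 0.666) of the mesenchymal level, and at 12.1 CPM (10.6 to 13.9) at E16.5, from 217 UMIs in 61 of 1744 cells, which was 1.57-fold (1.26 to 1.96) the mesenchymal level. The shares of cells with a UMI were low in both lineages and in erythroid cells: 3.47% and 3.21% in mesenchyme, 2.23% and 3.5% in epithelium and 2.07% and 8.33% in erythroid cells, at median depths of 3239 and 5873.5, 4255.5 and 6668.5, and 5857 and 10995.5 UMIs. At E16.5 both shares lay within the interval of the erythroid share (1.75% to 22.5%), which rests on 3 of 36 cells. The erythroid level of E16.5 was 7.35 CPM, from 3 UMIs, against 7.71 CPM in mesenchyme and 12.1 CPM in epithelium. At E14.5 the mesenchymal share lay above the erythroid share but within its interval (0.429% to 5.93%), and the mesenchymal level lay above the erythroid 3.35 CPM (0.690 to 9.78). The epithelial level of E14.5 lay within the interval of that erythroid level. Thinned to 2000 UMIs per cell, the shares at the 2 stages were 1.89% and 1.06% in mesenchyme, 1.32% and 1.39% in epithelium and 0.699% and 0% in erythroid cells, the last from 36 cells, so the order of the shares at E16.5 turned with depth and none was read from it. Immune cells had an *Acta2* UMI in 3 of 129 and 0 of 26 cells, at 3.10 CPM (0.638 to 9.05) at E14.5. Endothelium of E14.5 stood at 17.2 CPM (9.42 to 28.9), from 14 UMIs in 4 of 163 cells, a ratio of 1.32 (0.710 to 2.26) to mesenchyme. At E16.5, 10 epithelial cells with at least 5 *Acta2* UMIs held 60.4% of the epithelial *Acta2*. Of these 10 cells, 6 carried a perivascular marker, as did 31.3% of the epithelial cells without *Acta2*, and their median depth was 16403 UMIs against 6558. With all cells that carried a perivascular marker left out of both lineages, chosen after seeing the data, the E16.5 ratio was 1.34. The perivascular-marker sets are left out of the epithelial and mesenchymal levels given here. Of the 77 such cells of E16.5, 60 were drawn from mesenchymal and 15 from epithelial clusters, and of the 15 of E14.5, 9 and 4. The ratio of epithelium to mesenchyme with these cells left in their clusters was not computed. A single E16.5 cell with 4 muscle markers had 40 *Acta2* UMIs, or 2370 CPM (1700 to 3230).

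*Tagln* encodes transgelin, which bundles actin filaments in smooth muscle. It stood at 468 CPM (386 to 563) in the E14.5 perivascular-marker cells and 130 CPM (113 to 148) in those of E16.5, against 37.8 CPM (35.0 to 40.7) and 32.4 CPM (29.8 to 35.1) in mesenchyme. The ratios were 12.4 (10.1 to 15.2) and 4.0 (3.40 to 4.68). Unlike *Acta2*, it was also high in glia, at 203 CPM (158 to 257) with a UMI in 17 of 23 glial-marker cells of E11.5 and 170 CPM (119 to 234) with a UMI in 16 of the 44 cells of the E14.5 glia-like cluster, in both of which *Acta2* gave at most 2 UMIs. In the 12 glial-marker cells of E16.5, where the epithelial markers stood above the glial ones, it stood at 7.0 CPM (1.91 to 17.9). In the E11.5 muscle cluster it stood at 23.6 CPM (14.6 to 36.1), a ratio of 16 (9.29 to 26.6) to mesenchyme, with 102 of 114 cells at 0. In epithelium it had 22.7 CPM (19.3 to 26.6) at E14.5, against 17.4 CPM (15.5 to 19.4) in that of E16.5. At E14.5 this lay close to the 24.6 CPM (15.4 to 37.2) of erythroid cells and above the 4.13 CPM (1.12 to 10.6) of immune cells.

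In endothelium *Tagln* stood at 10.9 CPM (5.46 to 19.6) at E11.5, from 11 UMIs in 6 of 215 cells, 6.15 CPM (2.0 to 14.4) at E14.5 and 0 UMIs at E16.5. Its ratio to mesenchyme was 7.41 (3.52 to 14.2) at E11.5 and 0.163 (0.0527 to 0.382) at E14.5. Mesenchyme itself went from 1.48 CPM (1.14 to 1.88) at E11.5 to 37.8 CPM at E14.5, 25.6-fold (19.8 to 33.6). The E14.5 endothelial value depended on 2 cells with perivascular markers: with them left in the cluster, the log2 ratio with 10 CPM added was -0.30 in place of -1.56. *Cnn1*, which encodes calponin and marks mature smooth muscle, was close to absent. It had 6, 9 and 14 UMIs in all cells of the stages, of which 10 lay in 4 perivascular-marker cells of E16.5 (6.08 CPM, 2.92 to 11.2) and 7 in 1 of those cells.

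*Myl9* is one of the regulatory light chains, whose phosphorylation switches the motor on. Its highest levels within a stage lay in lineages where *Acta2* or *Tagln* was high, and those of the essential light chain *Myl6* did not. This did not hold over the mesenchymal clusters of E14.5, as given below. In the perivascular-marker cells of E16.5 *Myl9* was 1.96-fold (1.72 to 2.24) mesenchyme and was not called. *Myl9* stood at 64.2 CPM (48.6 to 83.1) in the E11.5 muscle cluster, 157 CPM (111 to 216) and 162 CPM (143 to 183) in the perivascular-marker cells of E14.5 and E16.5, and 122 CPM (87.8 to 166) and 147 CPM (100 to 207) in glia of E11.5 and E14.5. In mesenchyme it stood at 11.4 CPM (10.4 to 12.4), 41.9 CPM (39.0 to 45.1) and 82.8 CPM (78.7 to 87.1) over the stages. At E11.5 the mesenchymal level lay close to that of erythroid cells, at 9.13 CPM (4.17 to 17.3). The steps between stages were 3.69-fold (3.29 to 4.14) and 1.97-fold (1.81 to 2.16). Epithelium of E14.5 had 9.32 CPM (7.18 to 11.9) and that of E16.5 had 20.3 CPM (18.3 to 22.5), 0.222 (0.169 to 0.287) and 0.246 (0.218 to 0.276) of mesenchyme. Erythroid cells stood above or near these epithelial levels, at 23.4 CPM and 14.7 CPM (5.39 to 32.0), whereas immune cells of E14.5 had 4.13 CPM (1.12 to 10.6) and endothelium of E16.5 had 8.10 CPM (3.70 to 15.4). Whether the epithelial UMIs came from the epithelial cells themselves was not tested.

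*Myl6* was found in 82.3%, 81.4% and 95.1% of mesenchymal cells, at 364, 580 and 668 CPM. Its highest levels were endothelial, at 1070 CPM (1010 to 1140), 1250 CPM (1180 to 1330) and 1300 CPM (1240 to 1370), which were 2.94-fold (2.76 to 3.13), 2.16-fold (2.02 to 2.30) and 1.95-fold (1.85 to 2.06) those of mesenchyme. The perivascular-marker cells of E14.5 and E16.5 followed with 961 and 884 CPM, and immune cells had 920, 699 and 861 CPM. Epithelium stood at 449 CPM (433 to 465) and 567 CPM (556 to 579), 0.774 and 0.849 of mesenchyme. The lowest levels were those of erythroid cells, at 262, 375 and 335 CPM.

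The tropomyosins lie along the actin filament and control which partners reach it. Both stood high in the E11.5 muscle cluster, *Tpm1* at 1050 CPM (988 to 1120) and *Tpm2* at 322 CPM (286 to 362), 4.62-fold (4.31 to 4.94) and 8.51-fold (7.48 to 9.65) the mesenchymal levels. In mesenchyme *Tpm1* stood at 228, 628 and 910 CPM and *Tpm2* at 37.8, 141 and 191 CPM over the stages. From E11.5 to E14.5 these were steps of 2.75-fold (2.67 to 2.82) and 3.72-fold (3.5 to 3.96). The genes parted in epithelium. *Tpm1* kept 424 CPM (409 to 439) and 459 CPM (449 to 469) there, 0.675 and 0.504 of mesenchyme, whereas *Tpm2* had 16.2 CPM (13.3 to 19.5) and 30.9 CPM (28.4 to 33.6), 0.115 (0.0941 to 0.139) and 0.162 (0.148 to 0.177) of mesenchyme and no higher than the erythroid levels of 63.6 CPM (48.2 to 82.4) and 44.1 CPM (26.1 to 69.7). Immune cells of E14.5 also stood above epithelium, at 40.2 CPM, but those of E16.5 did not. At E16.5 immune cells gave 3 *Tpm2* UMIs, 0.0685% of that gene's UMIs with 0.717% of all UMIs. Epithelium of E16.5 held 12.6% of them with 44.7% of all UMIs. Background in the epithelial *Tpm2* level was not tested. In endothelium *Tpm2* had 16.9, 8.61 and 14.4 CPM, which at the later stages was 0.0611 (0.0246 to 0.126) and 0.0755 (0.0431 to 0.123) of mesenchyme. *Tpm1* had 300, 263 and 165 CPM there, near the erythroid levels of 288 and 286 CPM at E14.5 and below them at E16.5. In E11.5 immune cells *Tpm2* was found in 34 of 66 cells at 123 CPM (96.8 to 154) against 40.2 CPM (28.6 to 55.0) in those of E14.5. The 10 platelet markers of the list moved with it, at 1780 and 431 CPM in sum, and their part in the *Tpm2* level was not tested.

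Of the 3 heavy chains, *Myh9* encodes the heavy chain of non-muscle myosin IIA, *Myh10* that of IIB and *Myh14* that of IIC. *Myh10* was the main heavy chain of mesenchyme, with 88.5% (87.9 to 89.0), 77.6% (76.3 to 78.9) and 74.1% (72.7 to 75.5) of the heavy chain UMIs over the stages, and of the E11.5 muscle cluster, with 86.0% (80.8 to 90.3). In epithelium its share was 61.5% (59.1 to 63.8) for E14.5 and 54.0% (52.5 to 55.4) for E16.5, and in endothelium 55.6% (51.5 to 59.6) at E11.5 and 54.4% (49.2 to 59.4) at E16.5, with an interval of 44.2% to 55.8% at E14.5. In immune cells *Myh9* was the main heavy chain, and the *Myh10* share was 29.1% (22.4 to 36.5), 8.26% (4.03 to 14.7) and 2.94% (0.0744 to 15.3), and the *Myh10* level 80.8, 10.3 and 3.48 CPM. At E11.5 the immune *Myh10* came from 20 of 66 cells, with 80.0% in the 10 highest. Of the 23 glial-marker cells of E11.5, 18 were drawn from that immune cluster. No immune class was drawn at E11.5 with the members kept among the variable genes or under either other filter on cells. Erythroid cells had 83.2, 87.1 and 66.1 CPM of *Myh10*, above the later immune levels.

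*Myh9* was high in endothelium, at 268 CPM (237 to 302), 182 CPM (154 to 214) and 152 CPM (130 to 177), against 34.9, 50.4 and 57.1 CPM in mesenchyme. The ratios were 7.69 (6.73 to 8.75), 3.61 (3.01 to 4.30) and 2.66 (2.25 to 3.14). At E11.5 the endothelial UMIs of *Myh9* came from 65 of 215 cells, with 61.5% in the 10 highest cells. Depth in that group ran from 906 to 75780 UMIs with a median of 1686, so a few cells carried much of the level. Glia of E11.5 and E14.5 had 224 CPM (176 to 281) and 119 CPM (77.9 to 175), and erythroid cells the lowest at each stage, at 19.3, 23.4 and 31.8 CPM. Epithelium was above mesenchyme as well, at 88.7 CPM (81.8 to 96.1) and 106 CPM (101 to 111), 1.76-fold (1.58 to 1.95) and 1.86-fold (1.72 to 2.0). Its *Myh10* levels of 151 CPM (142 to 160) and 142 CPM (137 to 148) were slightly below those of mesenchyme, at 0.857 (0.798 to 0.919) and 0.864 (0.819 to 0.912). *Myh14* was an epithelial gene. It stood at 5.83 CPM (4.16 to 7.94) in E14.5 and 15.3 CPM (13.5 to 17.2) in E16.5 epithelium, with a UMI in 3.44% and 11.1% of cells (0.840% and 2.78% after thinning), against 0.338 CPM (0.124 to 0.735) and 0.388 CPM (0.156 to 0.80) in mesenchyme. The ratios were 17.3 (7.27 to 49.8) and 39.3 (18.8 to 98.6), and epithelium held 74.1% and 85.0% of all *Myh14* UMIs. It remained a small part of the epithelial heavy chains, 2.38% (1.70 to 3.22) and 5.79% (5.14 to 6.50). The perivascular-marker cells had 16.6 CPM (4.52 to 42.4) and 17.6 CPM (11.8 to 25.3), from 2 and 10 cells, and these sets also carried the epithelial markers at 2140 and 1800 CPM in sum, against 75.4 and 170 CPM in mesenchyme. The part of those markers in the *Myh14* level was not tested.

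**Figure D3:**
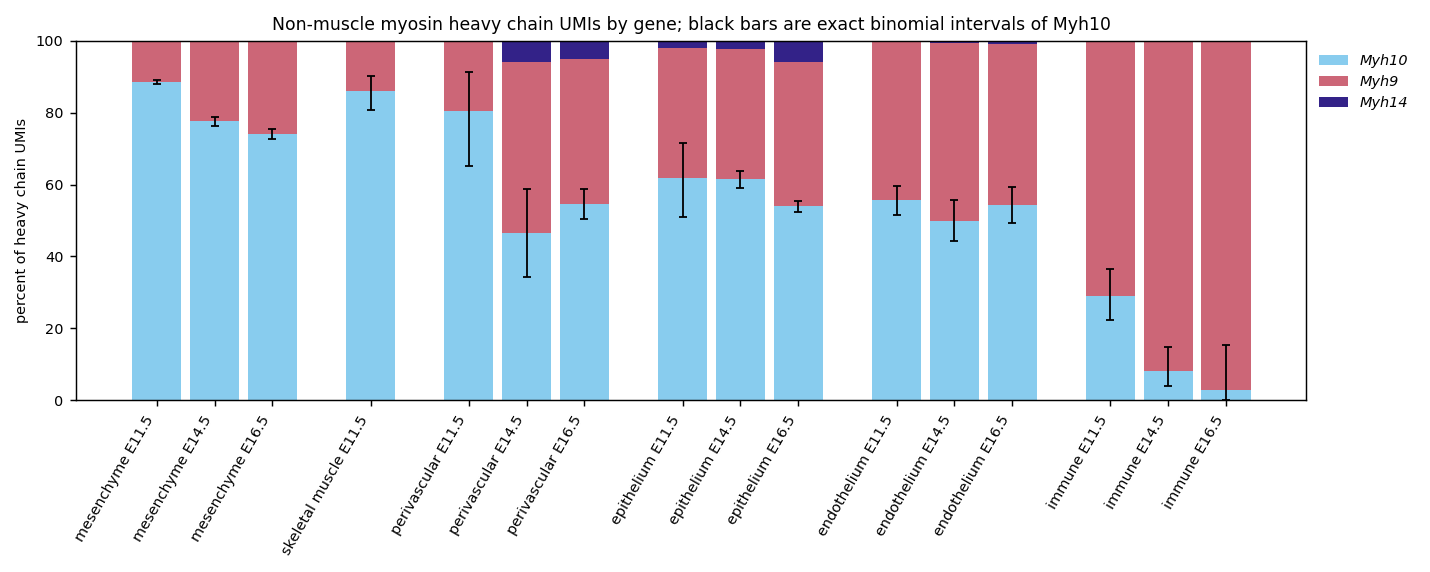
Share of *Myh9*, *Myh10* and *Myh14* in the heavy chain UMIs (percent) by lineage and stage. *Myh10* makes up 74.1% to 88.5% in mesenchyme and 54.0% to 61.5% in the epithelium of E14.5 and E16.5, and *Myh9* most of the immune UMIs.

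Counted together, members were called higher or lower where the ratio was at least 2-fold with 10 CPM added to both sides, with genes compared only if 10% or more of the cells of either side had a UMI and both sides together gave 50 counts or more, and the same count over all genes gives the background. A member that passed only through the group where it is high had to differ, so the counts are a description. In the E11.5 muscle cluster 8 of 10 members passed the filter and 5 were higher than in mesenchyme (*Acta2*, *Tagln*, *Myl9*, *Tpm1* and *Tpm2*) and 0 lower, where 2.23% of genes were higher and 1.80% lower. In the perivascular-marker cells of E14.5, 5 of 8 were higher (*Acta2*, *Tagln*, *Myl9*, *Tpm1* and *Myh9*) and 0 lower, against 4.13% and 5.25% of genes. In those of E16.5, 3 of 8 were higher (*Acta2*, *Tagln* and *Myh9*) and 0 lower, against 2.97% and 0.543%. In each of these comparisons *Cnn1* and *Myh14* did not pass the filter. The median log2 ratio of the members that passed was 1.67, 1.14 and 0.65, against -0.02, -0.03 and 0.08 over all genes.

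In endothelium 5, 7 and 7 members passed. At E11.5, 2 were higher (*Myl6* and *Myh9*) and 0 lower, against 7.79% and 4.76% of genes. At E14.5 the same 2 were higher and *Tagln*, *Myl9*, *Tpm1* and *Tpm2* lower, against 11.6% and 7.44%. At E16.5 only *Myh9* was called higher and the same 4 were lower, against 8.97% and 9.11%. With the 2 cells with perivascular markers left in endothelium, the E14.5 count of calls in either direction was 3 in place of 6. The median log2 ratio was 0.38, -1.07 and -2.08 against -0.09, -0.01 and -0.04. Several of the lower levels stood at or under those of erythroid cells, as given above. In epithelium 7 and 8 members passed. At E14.5, 0 were higher and 2 lower (*Myl9* and *Tpm2*), against 5.23% and 4.75% of genes. At E16.5, 1 was higher (*Myh14*) and the same 2 were lower, against 4.90% and 5.63%.

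Between stages, mesenchyme of E14.5 had 4 of 7 members higher than E11.5 (*Tagln*, *Myl9*, *Tpm1* and *Tpm2*) and 0 lower, against 3.59% and 3.39% of genes. Thinned to 2000 UMIs per cell, *Tagln* and *Myl9* were no longer called, since fewer than 10% of cells then had a UMI, at log2 ratios of 2.09 and 1.27. The median log2 ratio was 1.28 for the 7 members and -0.20 for all genes. *Myh10* was below 1, at 0.655 (0.629 to 0.681), a log2 ratio of -0.58 that lies closer to the shift of all genes, and *Acta2* went from 0.761 to 13.1 CPM without passing the filter on the share of cells. From E14.5 to E16.5, 0 of 7 were called in either direction, against 1.95% and 0.543%, with medians of 0.20 and 0.08. *Myl9*, at 1.97-fold, lay just under the limit, and *Acta2* stood at 0.591 (0.475 to 0.732).

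Within the mesenchyme the smooth muscle type members differed between clusters. In E16.5 mesenchyme a cluster led by *Sfrp4*, *Pdzrn4* and *Igf1* had 20.4 CPM (16.6 to 24.7) of *Acta2*, 94.8 CPM (86.6 to 104) of *Tagln*, 179 CPM (167 to 191) of *Myl9* and 1820 CPM (1780 to 1850) of *Tpm1*. The other 3 mesenchymal clusters had 1.21 to 4.29 CPM of *Acta2*, 2.83 to 10.8 of *Tagln*, 32.3 to 66.1 of *Myl9* and 469 to 639 of *Tpm1*. The heavy chains differed less, from 49.5 to 61.9 CPM for *Myh9* and 116 to 191 CPM for *Myh10*. At E14.5 the members did not move as a block. A cluster led by *Crym*, *Dlx2* and *Egr3* had 18.1 CPM of *Acta2* and 57.8 CPM of *Tagln* but the lowest *Tpm1* (304 CPM) of the 5 mesenchymal clusters. Its *Myl9*, at 27.0 CPM (23.3 to 31.2), could not be told apart from the 27.6 CPM (22.8 to 33.1) of a cluster led by *Ibsp*, *Igfbp5* and *Sfrp4*. A cluster led by *Ccnd1*, *Pitx1* and *Ntrk2* had 4.32 CPM of *Acta2* and 28.1 CPM of *Tagln* but the highest *Tpm1* (1040 CPM) and *Myl9* (92.4 CPM) of the 5. A cluster led by *Osr1*, *Ebf2* and *Ogn* had 62.2 CPM of *Tagln* and 888 CPM of *Tpm1*, and its 24.9 CPM of *Acta2* came from 5 of 519 cells, with 29 of the 34 UMIs in 1 cell. At E11.5 the 5 mesenchymal clusters had *Acta2* from 0.344 to 1.64 CPM and *Myh10* from 259 to 293 CPM. *Myl9* and *Tpm1* were lowest in 1 of them, at 6.08 CPM (4.55 to 7.95) and 175 CPM (167 to 184), and reached 13.9 CPM (11.2 to 17.1) and 248 CPM (240 to 255) in others.

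In E16.5 epithelium a cluster of 515 cells led by *Maf*, *Alpl* and *Sparcl1* had 43.6 CPM (37.4 to 50.5) of *Acta2*, 59.8 CPM (52.5 to 67.8) of *Tagln*, 48.8 CPM (42.2 to 56.1) of *Myl9* and 817 CPM (789 to 846) of *Tpm1*. Its *Acta2* and *Tagln* came from few cells, with a UMI in 6.80% and 8.74% of them and 74.3% and 75.0% of the UMIs in the 10 highest cells for each gene. The cluster led by *Pcp4*, *Cldn10* and *Crabp1*, with *Sox2* also among its leading genes, had low levels of all 4, at 0.425 CPM (0.0108 to 2.37), 4.25 CPM (2.04 to 7.82), 8.08 CPM (4.86 to 12.6) and 180 CPM (163 to 198). It had the highest *Myh10* of the 4 larger epithelial clusters, at 209 CPM (191 to 229) against 93.7 to 147 CPM. *Myh9* ranged from 89.2 to 130 CPM and *Myh14* from 11.1 to 24.2 CPM, both highest in the *Maf* cluster.

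**Figure D4:**
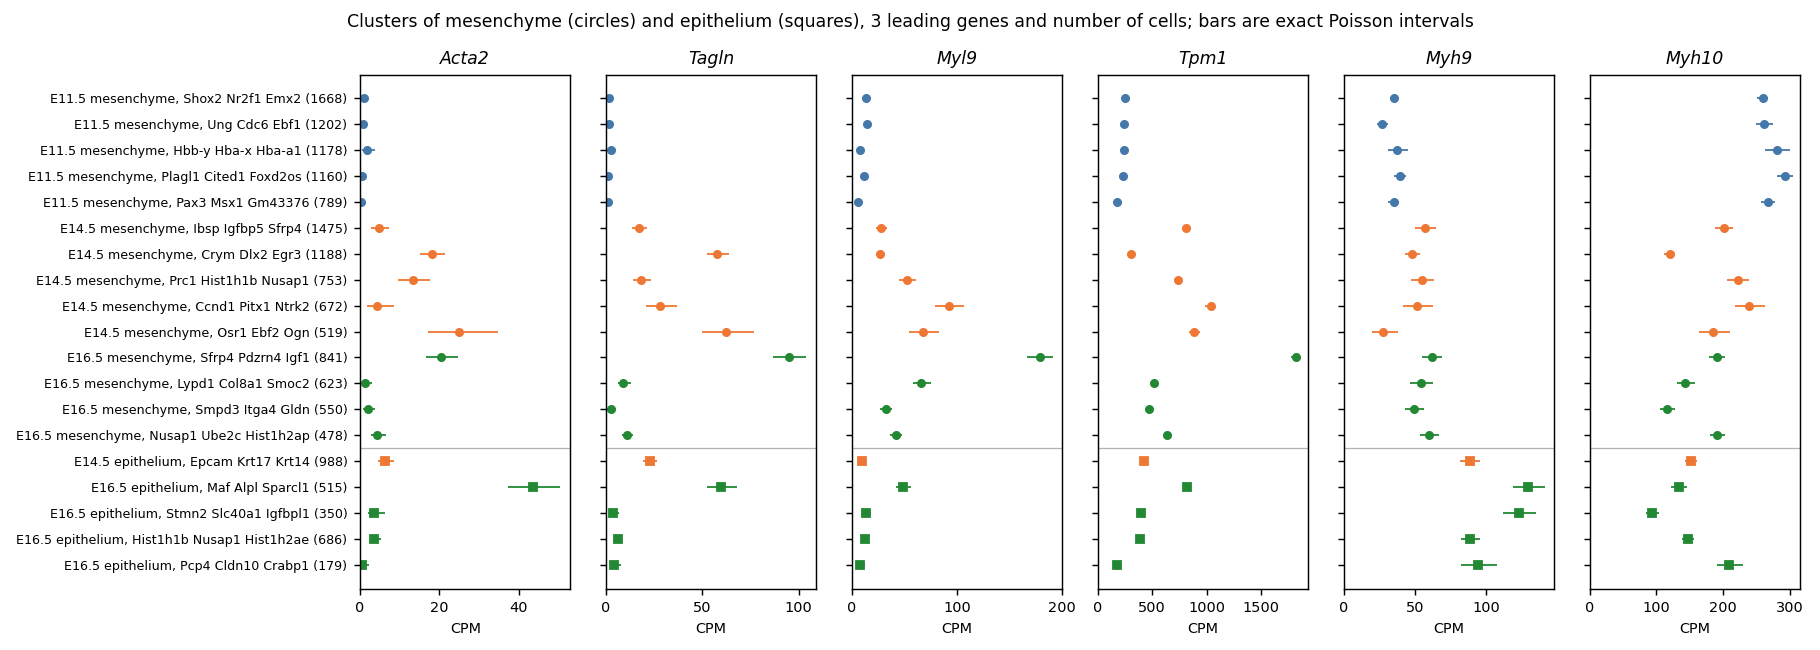
Levels of *Acta2*, *Tagln*, *Myl9*, *Tpm1*, *Myh9* and *Myh10* (CPM, linear axes) in each mesenchymal (circles) and epithelial (squares) cluster, named by stage and 3 leading genes, with exact 95% counting intervals as bars. The *Sfrp4* mesenchyme and the *Maf* epithelium carry the highest *Acta2*, *Tagln*, *Myl9* and *Tpm1* of their lineage at E16.5, and 10 cells hold 74.3% of the *Acta2* of the *Maf* cluster.

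In epithelium and mesenchyme of the later stages, cells with an *Acta2* UMI also had more *Tagln*. Epithelial cells of E16.5 with an *Acta2* UMI, 61 of them, had 184 CPM of *Tagln* against 5.80 CPM in the 1683 cells without, a ratio of 31.7 (24.8 to 40.7), and ratios of 9.96 (8.03 to 12.3) for *Myl9* and 3.02 (2.85 to 3.20) for *Tpm1*. At E14.5 the 22 epithelial cells with *Acta2* had 21.0-fold (15.0 to 29.1) the *Tagln* and 9.04-fold (4.79 to 16.2) the *Myl9* of the others. In mesenchyme the ratios for *Tagln* were 3.04 (2.41 to 3.8) for E14.5 and 6.31 (5.16 to 7.67) for E16.5. At E11.5 the 24 mesenchymal cells with *Acta2* had 29.2-fold (12.7 to 59.5) the *Tagln* of the others, from 9 UMIs, while the ratios for *Myl9* were 1.46 (0.395 to 3.76) in mesenchyme and 1.55 (0.830 to 3.06) in the muscle cluster. The heavy chains showed smaller ratios, with *Myh10* at 0.699 (0.454 to 1.03) and 1.18 (1.01 to 1.37) in epithelium and *Myh9* at 1.16 (0.745 to 1.73) and 1.56 (1.33 to 1.81). The cells with *Acta2* were deeper, with medians of 10824 against 6558 UMIs in E16.5 epithelium, and the part of depth and of the perivascular markers in these ratios was not tested.

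The other genes of the machinery were read from a list of 32. *Acta2* was a small part of the actins: cytoplasmic *Actb* made up 59.8% to 66.5% of the summed actin UMIs in the E11.5 muscle cluster and the E14.5 perivascular-marker set, and *Acta2* 4.49% (3.97 to 5.05) and 7.91% (6.82 to 9.12), against 0.0131% in E11.5 mesenchyme. The muscle cluster had 2 of 22 genes that passed higher than mesenchyme, *Actc1* (141 CPM against 0.208 CPM), the cardiac actin of early skeletal muscle, and the transgelin relative *Tagln2*, and 0 lower, against 2.23% and 1.80% of all genes. The smooth muscle heavy chain *Myh11* stood at 22.5 CPM in the E16.5 perivascular-marker cells and 1.28 CPM in mesenchyme and had no UMI in those of E14.5, and the enteric actin *Actg2* stood at 33.1 and 21.3 CPM in the sets of E14.5 and E16.5. *Myocd*, the coactivator of serum response factor in smooth muscle, reached at most 1.82 CPM in any lineage. Endothelium had 9 of 22, 6 of 23 and 8 of 23 genes higher, with *Tpm4*, *Smtn*, *Actn4*, *Zyx* and *Tagln2* among them at each stage, and 0, 1 and 1 lower (*Actn1*), where 7.79%, 11.6% and 8.97% of all genes were higher and 4.76%, 7.44% and 9.11% lower. Epithelium had none higher and 3 of 21 lower at E14.5 (*Tpm4*, *Cald1* and *Mylk*) and 2 of 22 lower at E16.5 (*Tagln2* and *Mylk*), against 4.75% and 5.63% of all genes lower. *Mylk*, the kinase of the regulatory light chain, stood at 1.75 and 1.96 CPM in epithelium against 37.9 and 57.3 CPM in mesenchyme and 3.18 CPM in mesenchyme of E11.5, whereas *Rhoa*, *Rock1* and *Rock2* passed the filter in both and were not called. Mesenchyme had 2 of 22 higher at E14.5 than at E11.5 (*Tagln2* and *Mylk*) and 1 of 22 higher at E16.5 than at E14.5 (*Myl12b*), against 3.59% and 1.95% of all genes.

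Over the 14 lineage and stage groups of at least 50 cells, log2(CPM + 10) of the members fell into separate patterns. *Myl9* went with *Tpm2* (r = 0.85), *Tagln* with *Myl9* and *Tpm1* (0.84 each) and *Myl6* with *Myh9* (0.90), whereas *Acta2* and *Myh9* (-0.06) and *Myh9* and *Myh10* (0.08) did not go together. Among 5070 genes, those most like *Acta2* were *Phlda1*, *Pgf*, *Vgll3*, *Parm1* and *Cacna2d1* (0.77 to 0.82), those most like *Myl9* *Gucy1a1*, *Plce1*, *Colec12*, *Tpm2* and *Tagln* (0.84 to 0.91), those most like *Myh9* *Clic1*, *Dgkz*, *Tgoln1*, *Ptbp3* and *Nt5c* (0.92 to 0.93), and those most like *Myh10* *Zfp532*, *Tcaf1*, *Ddah2*, *Tuba1a* and *Ier5l* (0.94). *Myh14* was most like the epithelial genes *Cldn10*, *Nectin4*, *Wnt4*, *Trp63* and *Perp* (0.95 to 0.97). The groups share 3 libraries and differ in depth, so these values are a description.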

How the data were processed

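Whole mandibles (E11.5) and lower incisor buds (E14.5, E16.5) were profiled by 10x 3′ scRNAseq. The authors counted UMIs with Cell Ranger 4.0.0 against mm10, and the deposited values are raw counts per gene and barcode, 1 pooled matrix per stage, with total counts of 49264075, 31670249 and 42895059. The labels' 10 samples were therefore treated as 3 pools. The members, marker lists and comparisons were chosen with earlier results of these data known. Named genes are the 10 members, a list of 32 other actin and myosin genes, and the 5 genes most like a member.

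Cells with under 700 genes or over 20% mitochondrial UMIs were left out. Counts were transformed with sctransform 0.4.2 in Seurat 5.3.0 (R 4.3.3). Clustering used 2000 variable genes without the members, 20 principal components and Leiden resolution 0.4 (leidenbase 0.1.32), and clusters that mixed lineages were divided by a finer partition. A cluster was named from a mean log2 marker ratio of at least 0.5 with at least 3 markers detected in 10% of cells. A cluster that reached this for no list was named mesenchyme where at least 8 of the 10 mesenchymal markers were so detected, which holds for all 5 mesenchymal clusters of E11.5 and 1 of E14.5. The rule is one that was revised after its output was seen. Scrublet in scanpy 1.11.5 called 0, 0 and 2 doublets and so had not worked, and no doublets were removed. CPM came from counts summed over cells, with exact Poisson intervals for levels, exact binomial intervals (Clopper-Pearson) for shares and exact conditional intervals for ratios, all at 95% (python 3.11.15, scipy 1.17.1, numpy 2.4.6). They cover counting error only. The limit of a count of 0 was 3 counts. Cells were thinned to 2000 UMIs to compare shares. The computation of ratios and calls was run on simulated counts with the same mean profile for all cells of a group. Such counts lack the variation between cells seen here, so they check the computation and not the intervals for these data. Gene positions are from the annotation of GRCm38 and box sequences from RefSeq on GRCm38.p6. With 1 pool per stage no test across samples could be made. 1 planned comparison of E11.5 cells is not reported here.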

Additional observations from a re-analysis of the deposited data

Results flagged for a closer look

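For 3 members the exact interval of the ratio to mesenchyme lay wholly above 1 at one stage and wholly below it at another, and these differences between stages were not tested. The same count over all genes was not made, so whether it is particular to the members is not known. *Tagln* in endothelium had a ratio of 7.41 in E11.5 mandibles, 0.163 in E14.5 buds and 0 in those of E16.5, where 121 cells gave 0 UMIs and the upper limit of the ratio was 0.103. The E11.5 ratio rests on 11 UMIs in 6 of 215 cells and did not pass the filter used for calls. The E14.5 ratio depended on 2 cells with perivascular markers, as given above. *Tpm1* in endothelium had ratios of 1.31, 0.419 and 0.181 over the same stages. Both ratios share a mesenchymal level that was lowest at E11.5, at 1.48 CPM for *Tagln* and 228 CPM for *Tpm1*. *Acta2* in epithelium stood at 0.480 of mesenchyme at E14.5 and 1.57-fold mesenchyme at E16.5. The epithelial level of E14.5 (6.26 CPM) and the mesenchymal level of E16.5 (7.71 CPM) lay near those of erythroid cells (3.35 and 7.35 CPM). At E16.5, 10 cells held 60.4% of the epithelial *Acta2*. Perivascular-marker cells, drawn mostly from mesenchymal clusters, are left out of these levels.

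Barcodes left out by the filter on genes and mitochondrial UMIs also held *Acta2*, at 5.71 CPM in 2135 barcodes of E11.5, 2.82 CPM in 2101 barcodes of E14.5, and 2.79 CPM in 1208 barcodes of E16.5, from 10, 11 and 8 UMIs. Their median depth was 737, 1037 and 1033 UMIs.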

How the results depend on the processing

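Of the recomputed values that answer a comparison, 149 were labelled as close to the reported value and 21 as moved. Of those of single members, 219 were labelled as close and 6 as moved. Many of these values are counts of called members or shares, which have no direction to reverse, so no count of reversals is given. A label of close does not mean that a value was unchanged. The log2 ratio of *Acta2* to mesenchyme in the perivascular-marker cells, or in a perivascular cluster where a setting drew one, depended most on the settings. At E14.5 it was 5.80 as reported, 6.63 with cells thinned to 2000 UMIs, 7.12 as a mean of per-cell CPM, and 4.19, 7.67 and 7.95 with at least 2, 4 and 6 markers. At E16.5 it was 5.41 as reported, 6.74 thinned, 6.60 as a mean of per-cell CPM, and 4.02, 6.78 and 7.66 with at least 2, 4 and 6 markers. Some settings drew a perivascular cluster at E16.5 in place of the 77 marker-defined cells. The ratio was then 7.91 at Leiden resolution 0.8 (25 cells) and 7.94 with the members kept among the variable genes (25 cells). In the latter, members such as *Acta2* could help draw the cluster. It was 7.98 with 1000 genes required and 10% mitochondrial UMIs allowed (24 cells). In E11.5 muscle it was 8.59 as reported and 9.73 with at least 4 markers. For epithelium it kept its sign under each setting run, from -1.29 to -0.75 at E14.5 and from 0.42 to 0.72 at E16.5. The setting with the marker-defined cells left in their clusters was not run for this ratio, so its sign under that setting is not known.

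Members called in epithelium went from 2 to 1 when thinned at E14.5 and from 3 to 6 at a 1.5-fold limit at E16.5. In endothelium they went from 2 to 1 with per-cell means at E11.5 and from 6 to 3 at E14.5 with the marker-defined cells left in their clusters. In mesenchyme they went from 4 to 2 when thinned (E14.5 against E11.5, where *Tagln* and *Myl9* were lost) and from 0 to 1 at the 1.5-fold limit (E16.5 against E14.5, *Myl9*). The *Myh10* share of E16.5 mesenchyme was 75.9% when thinned, against 74.1%. The causes of these changes were not tested. The limit of 6 markers, the marker-defined cells left in place, the cells with perivascular markers left out and all settings for *Acta2* in epithelium were chosen after seeing the data. No paired analysis was possible because each stage was 1 pool. The pools hold few perivascular-marker, glial and E11.5 epithelial-marker cells, so levels of scarce genes such as *Cnn1* and *Myh14* could not be resolved there.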
